A study of Danio rerio with 12 samples.

Results

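The change in gene expression between 1 and 24 hours post cryoinjury (hpci) was compared between *myd88*-/- and *myd88*+/+ zebrafish hearts in the injured tissue itself. All 8 bulk RNA-seq libraries of injured tissue were used, of 12 in the series, and the 4 libraries of untouched (UT) ventricles did not enter the comparison. Each of the 4 groups (*myd88*+/+ at 1 hpci, *myd88*+/+ at 24 hpci, *myd88*-/- at 1 hpci and *myd88*-/- at 24 hpci) held 2 libraries, and each library was made from 3 pooled injured tissues. The fish were adults of the AB strain, 3 to 12 months old. The mutants carried the loss-of-function allele hu3568 of *myd88*, the controls were wild-type siblings, and all 4 groups had the ventricular apex frozen with a cryoprobe. The mutation is present in every cell, so the comparison does not separate the cell types in which *myd88* acts. The replicates of a group are different pools of fish, and the groups at 1 and 24 hpci are different fish as well, so a change over time is a difference between pools.

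MyD88 is the adaptor protein that most Toll-like receptors and the interleukin-1 receptor family use to activate NF-kB, which switches on genes for cytokines and chemokines. After cryoinjury of the zebrafish heart, dying cells release molecules that engage these receptors, neutrophils and then macrophages enter the wound, and fibroblasts and endocardial cells lay down a temporary collagen-rich matrix while surviving cardiomyocytes prepare to divide. The 2 time points lie at the start of this sequence, and the question asked of the data is which genes took a different course between them when *myd88* was lost.

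Values are normalized counts (reads on exons divided by the size factor of each library and rounded). Changes are differences of log2(normalized count + 1) between group means, and the interaction is the change in *myd88*-/- tissue minus the change in *myd88*+/+ tissue. An interaction above 0 therefore means a larger rise or a smaller fall in the mutant. Genes were called where limma gave a p of under 0.05 after Benjamini-Hochberg adjustment and the difference exceeded 1.5-fold. For 1 gene and 2 libraries per group, the smallest two-sided p of an exact permutation test between 2 groups is 0.33, so every call rests on the spread that limma estimates across genes. In bulk tissue, fewer cells of a type and less RNA per cell cannot be told apart.

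The normalized totals of the 8 libraries lay between 2998177 and 3747891. The steps between low values show that 1 read was worth 2.54 normalized counts in replicate 1 of *myd88*+/+ at 24 hpci, which held an estimated 1476827 reads, against 0.727 to 1.01 in the other 7 libraries, with an estimated 3614497 to 4123603 reads. The floor of detection, a count of 3 reads, stood for 7.61 normalized counts in that library, and floors cover counting error only. The *myd88*+/+ replicates differed more from each other than the *myd88*-/- replicates. Of the genes tested, 18.7% lay more than 2-fold apart between the *myd88*+/+ libraries at 1 hpci and 20.9% at 24 hpci, against 9.18% and 7.76% for *myd88*-/-. At 1 hpci, replicate 2 of *myd88*+/+ stood furthest from the rest, with correlations of 0.900 to 0.915 across genes with the other 3 libraries, and it held fast skeletal muscle transcripts that were low or at 0 elsewhere. Cardiomyocyte genes summed to 21822 to 46600 normalized counts in every library, so heart muscle was present in all of them. Transcripts of *myd88* itself (chromosome 24) numbered 200 and 171 in *myd88*+/+ and 199 and 210 in *myd88*-/- tissue at 1 hpci, and 79 and 113 against 43 and 66 at 24 hpci. The transcript fell in both genotypes, and its level alone does not separate the genotypes at 1 hpci.

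Both genotypes passed through a large and mostly shared transition between 1 and 24 hpci. Of 16473 genes tested, 4457 (27.1%) changed in *myd88*+/+ tissue, 2257 upward and 2200 downward, and 4575 (27.8%) changed in *myd88*-/- tissue, 2535 upward and 2040 downward. The genes called in both numbered 3159, which is 70.9% of the *myd88*+/+ and 69.0% of the *myd88*-/- calls, and 3155 of them changed in the same direction. Across genes the changes correlated with a Pearson r of 0.81 and a Spearman rho of 0.81. This is a description over genes of 8 libraries, and genes are not independent replicates. The median interaction was 0.04, with quartiles of -0.31 and 0.55.

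The test of the difference between the genotypes called 1 gene, *alpk2*, which is 0.00607% of the genes tested. An unadjusted limma p below 0.05 was found for 657 genes (3.99%), and 8 genes had an adjusted p below 0.5. The 4 library-by-library changes of the mutant all lay above those of the controls for 1528 genes (9.28%) and all below them for 857 genes (5.2%). Every other gene named here is a description of its values, with an interaction that did not pass the threshold. Most were chosen by their interaction, which favours genotypes that lie apart at 1 of the time points. The share of all genes without overlap at a single time point was not counted. The standard error of the interaction had a median of 0.51 on the log2 scale, so that the 95% interval of a typical gene reached 1.15 to either side of its estimate. A difference of 2-fold between the courses of a typical gene was therefore not detectable at this replication. Many genes passed the thresholds in 1 genotype only, 1298 in *myd88*+/+ and 1416 in *myd88*-/-, but of these the interaction itself passed for *alpk2* alone. Unadjusted p-values below 0.05 were found for 16.9% of the first set and 12.1% of the second. A call in 1 genotype and not in the other is thus not by itself a difference between them.

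**Figure D1:**
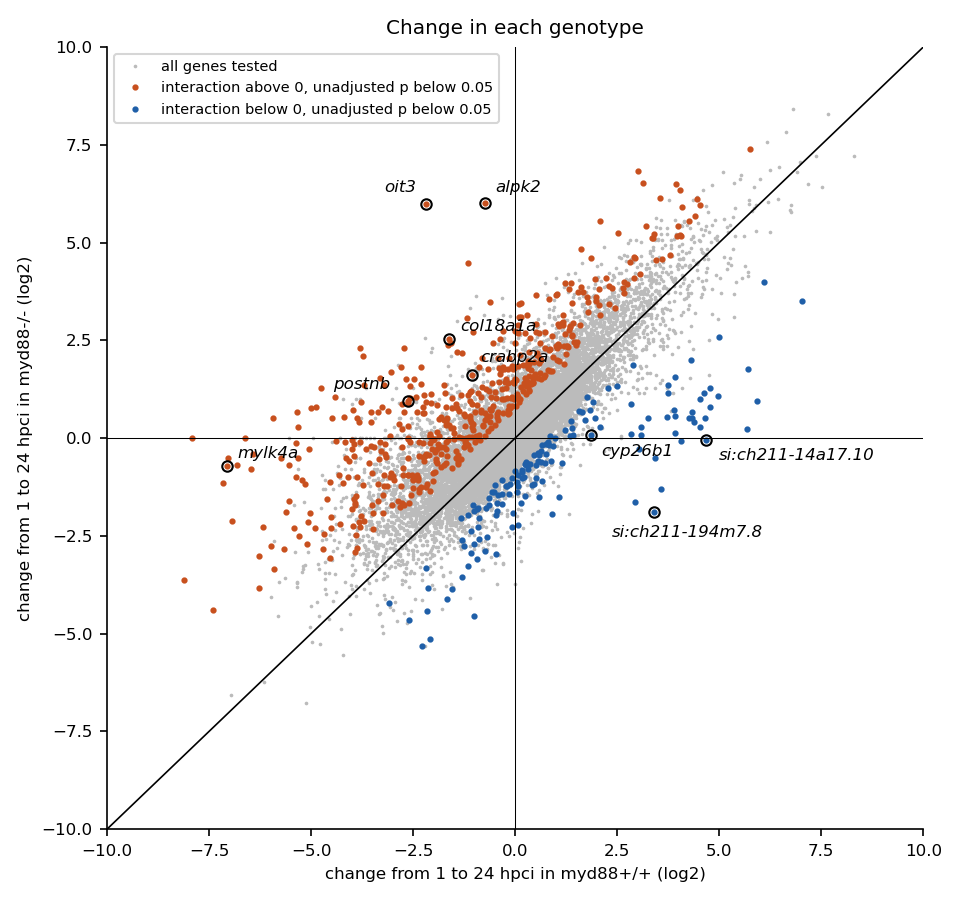
Change from 1 to 24 hpci in *myd88*+/+ injured tissue (horizontal axis) against the change in *myd88*-/- injured tissue (vertical axis), both on the log2 scale, for the 16473 genes tested. Genes with an unadjusted limma p below 0.05 for the interaction are coloured, orange above the diagonal of equal change (510 genes) and blue below it (147 genes), and *alpk2*, the only gene called, lies far above the diagonal at a change of -0.73 in *myd88*+/+ and 6.02 in *myd88*-/-.

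The gene *alpk2* (chromosome 21, 10866421 to 10880565, plus strand of danRer11) encodes an alpha-type protein kinase of the heart, which in zebrafish embryos is known for a role in heart development. It had 762 and 669 normalized counts in *myd88*+/+ tissue at 1 hpci and 398 and 464 at 24 hpci. In *myd88*-/- tissue it had 6 and 2 at 1 hpci and 289 and 305 at 24 hpci. The gene was nearly silent in both mutant libraries 1 hour after injury and then reached a level below, but near, that of the controls, whereas in the controls it was high at both times. The change was 6.02 in *myd88*-/- tissue (standard error 0.37, limma adjusted p = 7.4e-05) and -0.73 in *myd88*+/+ tissue (standard error 0.37, limma adjusted p = 0.17). The interaction was 6.75 (standard error 0.52, limma adjusted p = 0.0057), and all 4 library-by-library changes of the mutant lay above all 4 of the controls. One mutant value at 1 hpci, 2 normalized counts, lies below the floor of 3 reads (2.82), and the size of the interaction moved from 5.83 with a pseudocount of 5 to 6.94 with a pseudocount of 0.5. Over the 8 fits of 7 libraries it ranged from 6.14 to 7.36, but the call was lost without replicate 2 of *myd88*+/+ at 1 hpci (limma adjusted p = 0.12) and without replicate 2 of *myd88*-/- at 24 hpci (limma adjusted p = 0.059). The adjusted p over all alternatives ranged from 0.0012 to 0.12. In UT ventricles *alpk2* had 71 and 42 normalized counts in *myd88*+/+ and 47 and 54 in *myd88*-/- fish.

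Only 4 genes were called in both genotypes with opposite signs, *col18a1a*, *crabp2a*, *tenm3* and si:ch211-194m7.8, and *tenm3* is named here after its values were seen. Opposite changes that did not pass the thresholds in both genotypes are outside this count, so it does not show how common such courses were. The collagen XVIII gene *col18a1a* (chromosome 9, 41821613 to 41979505), whose product lies in basement membranes and is the source of endostatin, had 905 and 428 normalized counts in *myd88*+/+ tissue at 1 hpci and 185 and 222 at 24 hpci, a fall of 1.61 on the log2 scale (change -1.61, limma adjusted p = 0.010). In *myd88*-/- tissue it had 49 and 67 at 1 hpci and 301 and 372 at 24 hpci, a rise of 2.53 (limma adjusted p = 0.0015). The courses crossed, so that the gene was higher in the controls at 1 hpci and higher in the mutants at 24 hpci, with no overlap at either time. Its interaction of 4.14 (standard error 0.50) did not pass the threshold (limma adjusted p = 0.12). It passed in the fit of all 12 libraries, with quantile normalization and without replicate 1 of *myd88*+/+ at 1 hpci (limma adjusted p = 0.021, 0.015 and 0.046), and the adjusted p over all alternatives ranged from 0.015 to 0.72.

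Of the other 3, *crabp2a*, a cellular retinoic acid-binding protein gene, had 151 and 188 normalized counts falling to 74 and 87 in *myd88*+/+ and 19 and 24 rising to 59 and 78 in *myd88*-/- tissue (interaction 2.68, standard error 0.45, limma adjusted p = 0.46). *tenm3*, a teneurin gene of cell adhesion and neural wiring, had 158 and 124 falling to 56 and 75, and 26 and 42 rising to 89 and 65 (interaction 2.28, standard error 0.51). In *crabp2a* and *tenm3* the mutant started low and the courses met at 24 hpci. The gene si:ch211-194m7.8 (chromosome 25) took the reverse course, with 11 and 11 normalized counts rising to 168 and 93 in *myd88*+/+ and 20 and 15 falling to 3 and 5 in *myd88*-/- tissue (interaction -5.30, standard error 0.73, limma adjusted p = 0.18). Among the 8 genes with an adjusted p below 0.5, *oit3* was not covered by the rule for named genes and was chosen after its values were seen. It had 6 and 2 and then 0 and 0 in *myd88*+/+, and 0 and 0 and then 89 and 43 in *myd88*-/- tissue, so that it was above the floor of detection in both replicates only in the mutant at 24 hpci.

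**Figure D2:**
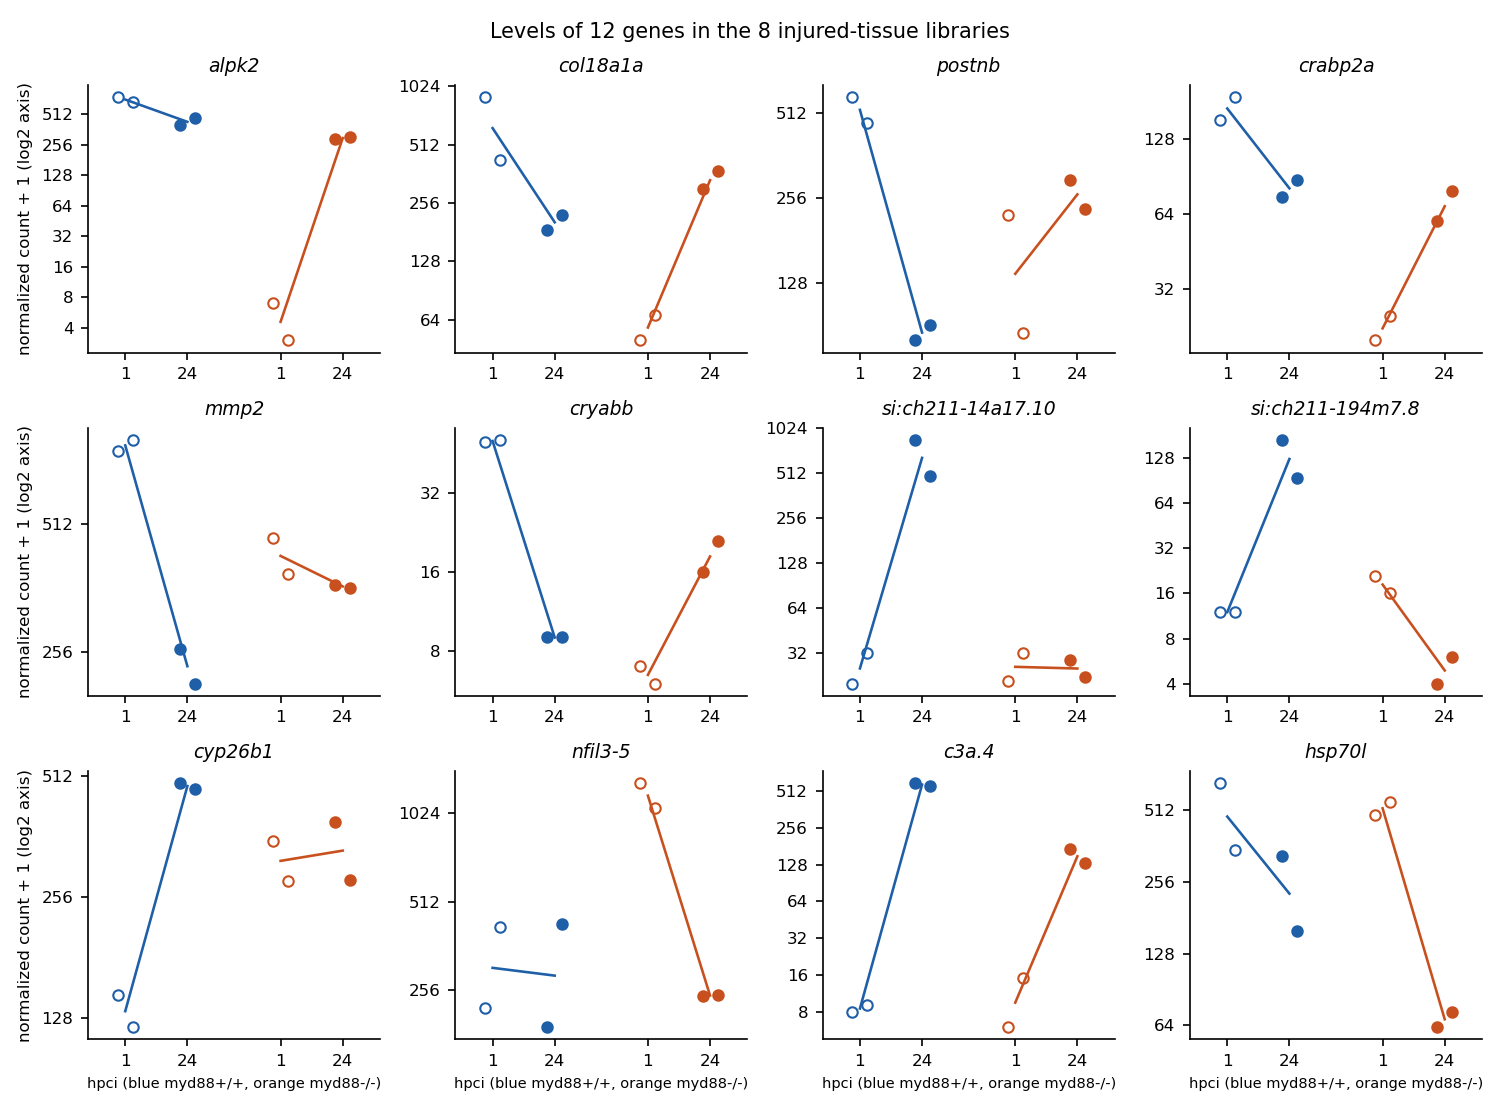
Normalized counts plus 1 (log2 axis, which differs between panels) of 12 genes in each injured-tissue library at 1 hpci (open circles) and 24 hpci (filled circles), *myd88*+/+ in blue and *myd88*-/- in orange, with lines joining the means of the log2 values. For *alpk2*, *col18a1a*, *postnb*, *crabp2a*, *mmp2* and *cryabb* the mutant is the lower genotype at 1 hpci without overlap. At 24 hpci it is the lower genotype without overlap for *alpk2*, si:ch211-14a17.10, si:ch211-194m7.8, *cyp26b1*, *c3a.4* and *hsp70l*.

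The genes with a low unadjusted p lay mostly above 0, and those above 0 differed more often at the early time point. Of the 657 genes with an unadjusted p below 0.05, 510 (3.1% of all genes tested) had an interaction above 0 and 147 (0.892%) below 0. Among the 510, the genotype difference was larger at 1 hpci than at 24 hpci for 356 genes (69.8%, beside 45.6% of all genes tested), with a median of -1.14 at 1 hpci and 0.56 at 24 hpci. In the *myd88*+/+ tissue 225 of them fell and 73 rose, against 51 and 198 in the *myd88*-/- tissue. Over all genes tested 13.4% fell and 13.7% rose in *myd88*+/+, and 12.4% and 15.4% in *myd88*-/- tissue. Choosing genes by an interaction above 0 favours these directions and the signs of the medians, so they are a description and not separate evidence. Among the 147, the larger difference was at 1 hpci for 73 and at 24 hpci for 74. The split by time point was not repeated with single libraries left out, so its dependence on any of them was not tested. The excess of genes above 0 depended on single libraries and on the scaling. It was 432 above and 276 below 0 with quantile normalization, under which 46.4% of all genes lay above 0, and 202 and 119 without replicate 1 of *myd88*-/- at 24 hpci. Without replicate 2 of *myd88*+/+ at 1 hpci the counts were 529 above and 305 below 0, and without replicate 2 of *myd88*+/+ at 24 hpci, which leaves the shallow library as the only one of its group, they were 1463 and 1455. Split by the mean change of both genotypes, which does not fix the sign of the interaction, the 3561 genes that rose had a median interaction of 0.13 and the 3378 that fell 0.07. The change was smaller in the mutant for 40.5% of the rising and 54.6% of the falling genes. Neither median exceeded its spread over the combinations of 1 library per group (SD 0.16 and 0.18), and both turned in sign with a library left out, to -0.05 for the rising genes without replicate 2 of *myd88*+/+ at 1 hpci and to -0.09 for the falling genes without replicate 1 of *myd88*-/- at 24 hpci.

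Collagens form the fibres and sheets of the scar and of basement membranes, and all 27 collagen genes tested had an interaction above 0 (26 with quantile normalization, and 22 to 27 with single libraries left out, the fewest without replicate 2 of *myd88*+/+ at 1 hpci), from 0.13 to 4.14 and with the median at 1.57. For all genes tested 52.7% lay above 0. None of the 27 passed the threshold. An unadjusted p below 0.05 was found for 9 of them, beside 3.1% of all genes in that direction, and the changes of the genotypes did not overlap for 11, beside 9.28% of all genes. The count of 9 was 4 without replicate 2 of *myd88*+/+ at 1 hpci, 4 without replicate 1 of *myd88*-/- at 24 hpci, 5 without replicate 2 of *myd88*-/- at 1 hpci, 6 without replicate 1 of *myd88*+/+ at 24 hpci and 13 without replicate 1 of *myd88*+/+ at 1 hpci, and it was 14 with quantile normalization. In *myd88*+/+ tissue 11 collagens fell and 2 rose, beside 13.4% and 13.7% of all genes, and in *myd88*-/- tissue 2 fell and 5 rose, beside 12.4% and 15.4%. At 1 hpci the median genotype difference over the list was -0.52 and at 24 hpci 0.67. The median interaction was 0.86 without replicate 2 and 1.92 without replicate 1 of *myd88*+/+ at 1 hpci, and 1.2 without the shallow library.

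Besides *col18a1a*, 3 collagens were named by the rule. *col8a1b*, a short-chain collagen gene of vessel and endothelial matrix, had 33 and 59 normalized counts falling to 8 and 5 in *myd88*+/+ tissue, against 24 and 30 and then 22 and 32 in *myd88*-/- tissue (interaction 2.60, standard error 0.71, limma adjusted p = 0.94). *col10a1b* had 57 and 105 falling to 18 and 8, against 6 and 1 and then 8 and 9 (interaction 3.93, standard error 1.04). Neither change passed the test in the mutant. *col11a1a*, a fibril-forming collagen gene, rose in both genotypes, from 2 and 8 to 30 and 56 in *myd88*+/+ and from 1 and 0 to 168 and 150 in *myd88*-/- tissue, where the values at 24 hpci lay above both controls. The abundant fibrillar collagens *col1a1a* and *col1a2* had interactions of 0.36 and 0.50 with unadjusted p above 0.2, and they are named here after their values were seen.

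Matricellular proteins sit in the matrix and signal to cells without building fibres. Of 49 matricellular and fibrosis genes, 37 had an interaction above 0, with a median of 0.77. An unadjusted p below 0.05 was found for 9 above 0 and for 0 below 0, beside 3.1% and 0.892% of all genes. With single libraries left out the median ranged from 0.48 to 0.91 and the 9 genes became 3 without replicate 2 of *myd88*-/- at 1 hpci, 4 without replicate 1 of *myd88*-/- at 24 hpci and 20 without replicate 1 of *myd88*+/+ at 1 hpci. The periostin gene *postnb*, a marker of activated fibroblasts and epicardium-derived cells, had 586 and 472 normalized counts at 1 hpci and 79 and 90 at 24 hpci in *myd88*+/+ tissue. In *myd88*-/- tissue it had 223 and 84, then 297 and 233. The gene fell by 2.63 on the log2 scale in the controls (change -2.63) and had a change of 0.94 in the mutant, which was not called, and at 24 hpci both mutant libraries lay more than 2-fold above both control libraries, after lying below them at 1 hpci. Its interaction was 3.56 (standard error 0.57, limma adjusted p = 0.39). Its paralog *postna* had 333 and 368 falling to 33 and 101, against 101 and 101 and then 116 and 75 (interaction 2.46, standard error 0.65). *loxl2a*, encoding a lysyl oxidase that crosslinks collagen, had 426 and 547 falling to 86 and 255, against 218 and 161 and then 321 and 199 (interaction 2.13, standard error 0.66). The small proteoglycan gene *lum* had 15 and 28 and then 8 and 2, against 20 and 6 and then 23 and 20. In UT ventricles *postnb* had 692 and 549 normalized counts in *myd88*+/+ and 603 and 479 in *myd88*-/- fish.

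**Figure D3:**
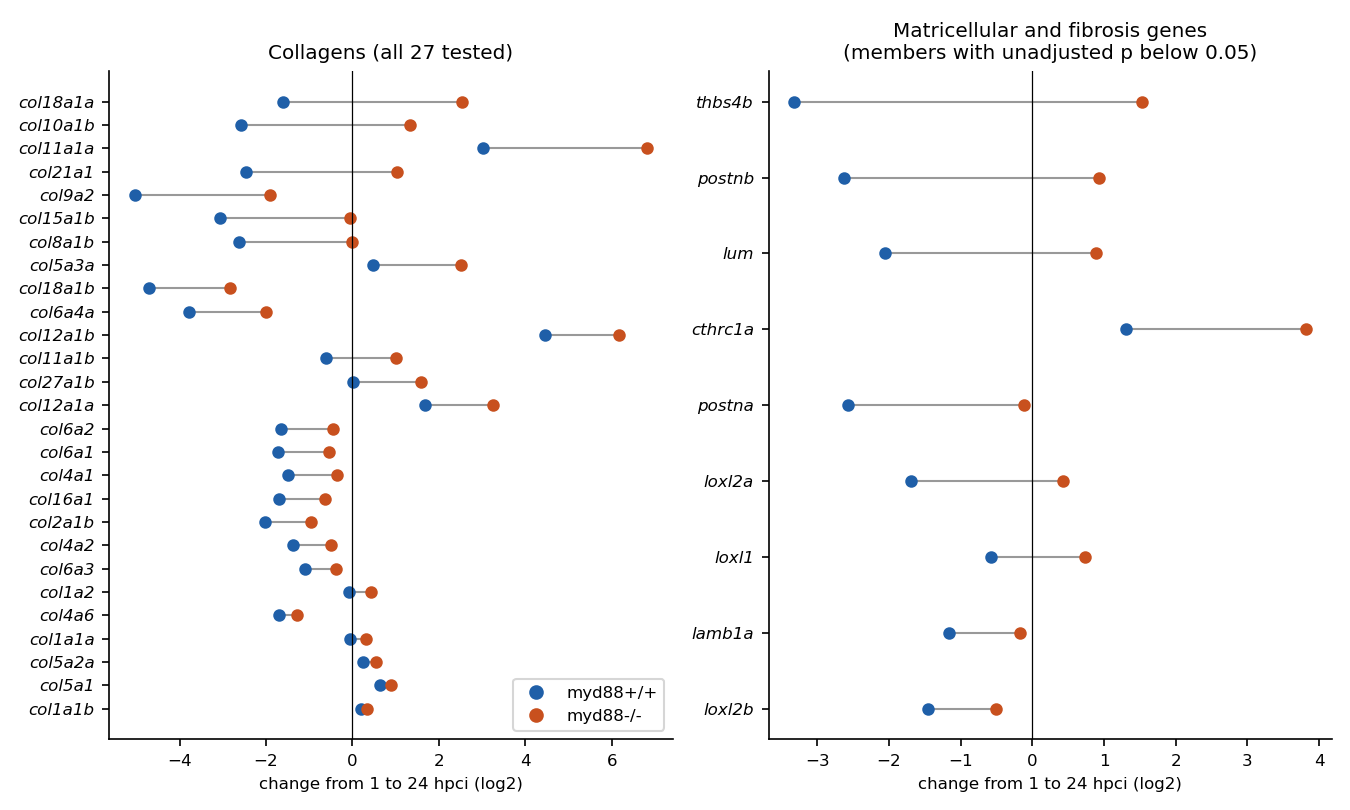
Change from 1 to 24 hpci on the log2 scale in *myd88*+/+ (blue) and *myd88*-/- (orange) injured tissue for the 27 collagen genes tested (left) and the 9 matricellular and fibrosis genes with an unadjusted limma p below 0.05 (right), in order of the interaction, which is the length of the grey line. The orange point lies to the right of the blue point for every collagen shown.

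Enzymes that cut and stabilise the matrix gave a mixed picture. Over 28 genes of matrix metalloproteinases, ADAMTS proteases and their TIMP inhibitors the median interaction was 0.87. With single libraries left out it ranged from 0.14, without the shallow library, to 1.15. Of the 28, 2 genes above 0 and 0 below 0 had an unadjusted p below 0.05, beside 3.1% and 0.892% of all genes. *mmp2*, a gelatinase gene of fibroblasts, had 762 and 809 normalized counts falling to 259 and 214 in *myd88*+/+ tissue, against 475 and 389 and then 367 and 361 in *myd88*-/- tissue. The mutant level was below the controls at 1 hpci and above them at 24 hpci, each without overlap (interaction 1.49, standard error 0.30, limma adjusted p = 0.77), and single libraries moved the interaction no further than 1.35 to 1.64. The collagenase gene *mmp13b* had 4 and 14 and then 8 and 9, against 0 and 0 and then 7 and 8. *mmp9*, the gelatinase of neutrophils and macrophages, had 285 and 600 and then 411 and 406, against 329 and 388 and then 311 and 333, an interaction of -0.13 (standard error 0.45). The 2 genes listed as *mmp13a*, whose reads may be uncertain if they share sequence, had interactions of -1.22 and -0.12 with standard errors of 1.32 and 0.41. The direction of *mmp9* and of both *mmp13a* genes turned when single libraries were left out.

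Fast skeletal muscle genes had the highest median of the lists and rested on the *myd88*+/+ libraries at 1 hpci. These genes encode the myosins, troponins and parvalbumins of trunk muscle, which the heart does not build into its sarcomeres, although some members of the list, such as the creatine kinase gene *ckma*, are also expressed by heart muscle. Of 39 genes tested, 33 had an interaction above 0, beside 52.7% of all genes, with a median of 3.58. An unadjusted limma p below 0.05 was found for 12 above 0 and 0 below 0, beside 3.1% and 0.892% of all genes. Some members, such as *myhz2*, reached the mean of above 5 needed for testing only through the *myd88*+/+ libraries at 1 hpci. That fixes their interaction above 0, so these counts are a description and not evidence. Their summed level was 10944 and 26530 normalized counts in *myd88*+/+ tissue at 1 hpci, 9574 and 5259 at 24 hpci, 8587 and 8310 in *myd88*-/- tissue at 1 hpci, and 4998 and 4371 at 24 hpci. In replicate 2 of *myd88*+/+ at 1 hpci 0 of the 39 were at 0 and 36 were above 100 normalized counts, whereas 4 to 18 were at 0 and 7 to 11 above 100 in the other 7 libraries. The myosin gene *myhz2* had 31 and 1815 normalized counts in that group and at most 1 in each of the other 6 libraries. *mylpfa*, a myosin light chain gene, had 40 and 932 against at most 11 elsewhere. Both *myd88*+/+ libraries at 1 hpci stood above all others for these genes, by unequal amounts. The calcium-buffering parvalbumin genes did so more evenly, *pvalb2* with 128 and 156 against at most 4 elsewhere and *pvalb3* with 154 and 238 against 3 to 42. The median interaction of the list was 6.23 without replicate 1 and 1.00 without replicate 2 of this group. Genes called in the interaction without replicate 1 included members of this list and collagens. They also included further skeletal muscle genes that this list does not hold, such as slow myosin genes. The part of skeletal muscle transcripts in the other differences at 1 hpci was not tested.

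**Figure D4:**
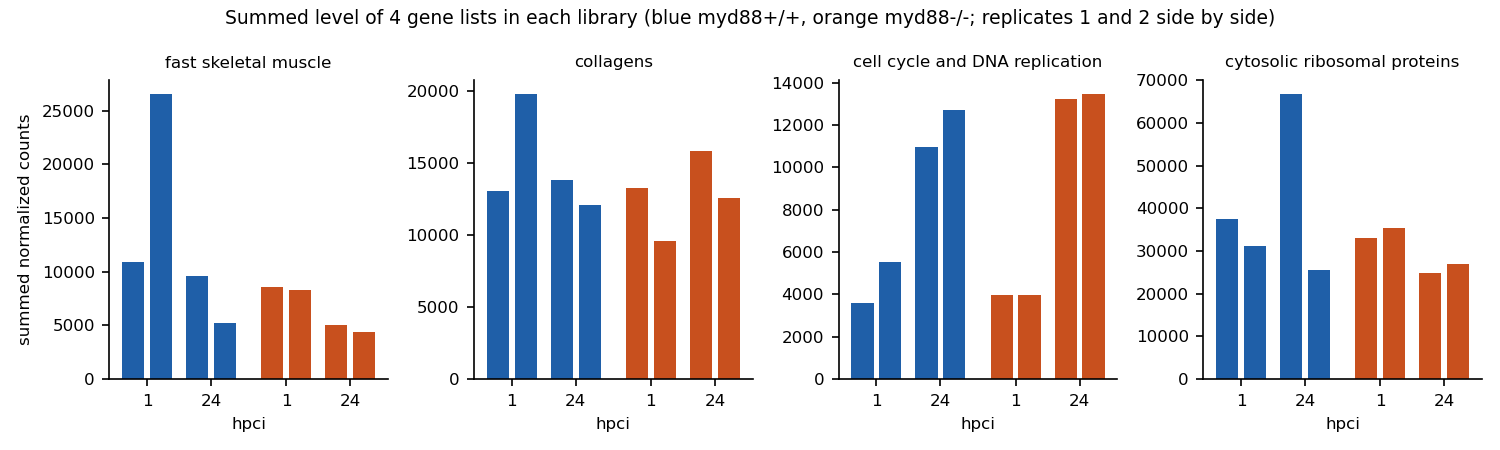
Summed normalized counts of 4 gene lists in each of the 8 libraries, replicates 1 and 2 side by side, *myd88*+/+ in blue and *myd88*-/- in orange. Fast skeletal muscle genes peak at 26530 in replicate 2 of *myd88*+/+ at 1 hpci, cytosolic ribosomal protein genes peak at 66695 in the shallow replicate 1 of *myd88*+/+ at 24 hpci, and cell cycle genes are higher at 24 hpci than at 1 hpci in every library.

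Some further genes with large positive interactions also began high in the controls. The kinase gene *mylk4a*, of the myosin light chain kinase family, had 772 and 272 normalized counts falling to 3 and 2 in *myd88*+/+ tissue, against 17 and 8 and then 14 and 3 in *myd88*-/- tissue (interaction 6.33, standard error 1.08, limma adjusted p = 0.46). Its control values at 24 hpci lie below the floors of 3 reads in replicates 1 and 2 (7.61 and 2.25), so the size of this fall is uncertain. *trib1*, a pseudokinase gene, had 580 and 68 falling to 5 and 19, against 17 and 10 and then 18 and 21 (interaction 4.73). *chd5*, a chromatin remodeller gene, had 368 and 73 falling to 25 and 5, against 4 and 6 and then 25 and 24 (interaction 5.83). For all 3 the mutant at 1 hpci lay below both controls, but the controls were uneven. *trib1* and *chd5* were several times higher in 1 control library than in the other, so their size leans on that library, and *mylk4a* was more than 2-fold apart.

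The genes with the lowest interactions were mostly ones that came on in the controls and not, or less, in the mutants. The clearest was si:ch211-14a17.10 (chromosome 2, 38231695 to 38261272), which had 19 and 31 normalized counts at 1 hpci and 853 and 490 at 24 hpci in *myd88*+/+ tissue. In *myd88*-/- tissue it had 20 and 31 and then 28 and 21, so that all 4 mutant values lay within the range of the controls at 1 hpci. The interaction was -4.72 (standard error 0.60, limma adjusted p = 0.13), and it was called with quantile normalization alone (-5.06, limma adjusted p = 0.011) among the alternatives, whose adjusted p ranged up to 0.93. The transglutaminase-family gene *tgm5l* had 1 and 3 rising to 86 and 56, against 3 and 6 and then 7 and 6 (interaction -4.14, standard error 0.94). The intelectin gene *itln1*, encoding a lectin that binds microbial sugars, had 0 and 10 rising to 272 and 146, against 4 and 8 and then 7 and 20 (interaction -4.97, standard error 1.47). In these 3 genes the mutant showed no call between the time points. *alox5b.2*, of the lipoxygenase family that starts leukotriene synthesis, did rise in the mutant, from 4 and 2 to 37 and 49, against a rise from 0 and 0 to 218 and 77 in the controls (interaction -3.54, standard error 0.93).

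Complement genes lay on both sides of 0. The complement component 3 gene *c3a.4* rose from 7 and 8 to 594 and 563 normalized counts in *myd88*+/+ tissue and from 5 and 14 to 170 and 130 in *myd88*-/- tissue, so the mutant reached less of the control level at 24 hpci without overlap (interaction -2.11, standard error 0.64, limma adjusted p = 0.94). The 3 complement genes with an unadjusted p below 0.05 above 0 were *c6*, *c7a* and *c4b*, of which *c6* and *c7a* encode parts of the membrane attack complex and *c4b* a component of the C3 convertase. *c6*, here the one of 2 genes of that symbol at 20795472 on chromosome 21, had 211 and 319 falling to 51 and 76 in *myd88*+/+, against 159 and 155 and then 178 and 94 (interaction 1.76, standard error 0.52), and *c7a* had 340 and 515 and then 297 and 417, against 285 and 146 rising to 683 and 447 (interaction 1.68, standard error 0.53). *c4b* had 55 and 220 and then 38 and 29, against 98 and 26 and then 127 and 61 (interaction 2.49, standard error 1.06). These were 3 above 0 and 1 below 0 of 19 complement genes tested, beside 3.1% and 0.892% of all genes, and leaving out single libraries gave 1 to 5 above 0, the fewest without replicate 2 of *myd88*-/- at 1 hpci and the most without replicate 1 of *myd88*+/+ at 24 hpci.

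Cytokine genes and the MyD88 pathway lay on both sides of 0. Over 43 cytokine and chemokine genes the median interaction was -0.17 (20 above and 23 below 0), with an unadjusted p below 0.05 for 1 gene in each direction (beside 3.1% of all genes above and 0.892% below 0), and over 38 genes of the TLR, MyD88 and NF-kB pathway it was -0.04 (18 above and 20 below 0), with 2 genes above 0 and 0 below 0. Without replicate 1 of *myd88*+/+ at 1 hpci the cytokine median was 0.27. The chemokine gene *ccl34b.9* rose from 0 and 4 to 180 and 73 normalized counts in *myd88*+/+ tissue, against 1 and 4 and then 8 and 12 in *myd88*-/- tissue (interaction -3.92, standard error 1.28, limma adjusted p = 0.94). The tumour necrosis factor gene *tnfa* rose from 3 and 2 to 119 and 78 in the controls and from 0 and 0 to 8 and 8 in the mutants (interaction -1.64, standard error 0.91). The genotypes did not overlap at 24 hpci. Since the mutant also started at 0, the interaction ranged from -0.95 with a pseudocount of 0.5 to -2.38 with a pseudocount of 5. The neutrophil-attracting chemokine gene *cxcl18b* had 340 and 230 and then 383 and 243, against 195 and 233 and then 116 and 157, with no call in either genotype (interaction -0.78, standard error 0.44, limma adjusted p = 0.94). *il1b* and *il11a*, of the interleukin-1 and interleukin-6 families, had interactions of -0.10 and -0.43, each with a standard error of 0.50. The interleukin-15 gene *il15* had 102 and 137 falling to 20 and 20, against 90 and 55 and then 33 and 33 (interaction 1.44, standard error 0.52). The interaction of *myd88* itself was -0.96 (standard error 0.43, limma adjusted p = 0.94).

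Receptor and macrophage genes lay mostly above 0. Over 36 cytokine and chemokine receptor genes the median interaction was 0.49 and 28 lay above 0, and over 22 macrophage genes it was 0.43 and 19 lay above 0. For all genes tested 52.7% lay above 0. An unadjusted limma p below 0.05 was found for 2 of the receptor genes and 1 of the macrophage genes, all above 0. That compares with 3.1% of all genes in that direction. Without replicate 2 of *myd88*+/+ at 1 hpci these medians were 0.29 and 0.06, and without replicate 2 of *myd88*+/+ at 24 hpci the macrophage median was -0.06. The macrophage gene *mpeg1.1*, encoding a pore-forming protein, rose from 185 and 139 to 873 and 530 normalized counts in *myd88*+/+ tissue and from 71 and 61 to 525 and 675 in *myd88*-/- tissue (interaction 1.08, standard error 0.41). The genes *tlr8b* and *tlr22* belong to neither list. They are in the TLR, MyD88 and NF-kB pathway list, which had a median of -0.04, with 18 genes above and 20 below 0. The Toll-like receptor gene *tlr8b*, whose product senses RNA in endosomes, rose from 22 and 31 to 170 and 249 and from 10 and 8 to 236 and 245 (interaction 1.67, standard error 0.49). *tlr22*, a receptor gene of fish, rose from 37 and 31 to 107 and 190 and from 16 and 6 to 142 and 161. In all 3 genes the mutant libraries were below the controls at 1 hpci and overlapped them at 24 hpci. *tnfrsf11a*, the RANK receptor gene, had 320 and 598 and then 426 and 431, against 136 and 179 rising to 409 and 423 (interaction 1.44, standard error 0.42). Summed macrophage markers were 3424 and 4441 against 2565 and 2413 normalized counts at 1 hpci, and 17793 and 10506 against 9887 and 10875 at 24 hpci. The 16 neutrophil genes had a median interaction of -0.11, with 7 above and 9 below 0, and 0 with an unadjusted limma p below 0.05. Their median was 0.27 (11 above and 5 below 0) without replicate 1 and -0.47 (2 above and 14 below 0) without replicate 2 of *myd88*+/+ at 1 hpci.

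Cell cycle and DNA replication genes rose in both genotypes, 46 of 88 in *myd88*+/+ and 68 of 88 in *myd88*-/- tissue, beside 13.7% and 15.4% of all genes, and none fell. The interaction was above 0 for 72 of the 88, with a median of 0.61 and an unadjusted p below 0.05 for 8 above 0 and 0 below 0, beside 3.1% and 0.892% of all genes. The helicase subunit gene *mcm6*, part of the MCM ring that opens replication origins, rose from 28 and 52 to 312 and 410 normalized counts in *myd88*+/+ and from 6 and 11 to 404 and 382 in *myd88*-/- tissue (interaction 2.23, standard error 0.55, limma adjusted p = 0.94). *mcm10*, a replication initiation gene, rose from 3 and 9 to 28 and 45 and from 0 and 1 to 55 and 51. The spindle assembly gene *tpx2* had 75 and 102 and then 137 and 129, against 55 and 29 rising to 157 and 181, and the transcription factor gene *e2f8* had 54 and 59 and then 71 and 126, against 28 and 34 rising to 170 and 146. In each of the 4 the mutant was the lower genotype at 1 hpci without overlap, and at 24 hpci it was the higher one for *mcm10*, *tpx2* and *e2f8* and overlapped for *mcm6*. The 4 were chosen by their interaction, which favours this order, so it is a description of their values and not a trait of the list. The list's median was -0.00 without replicate 2 and 1.2 without replicate 1 of *myd88*+/+ at 1 hpci, and the 8 genes became 2 and 23.

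Genes of retinoic acid, a signal of the activated epicardium and endocardium, had interactions in both directions. The degrading enzyme gene *cyp26b1* rose from 145 and 121 to 490 and 474 normalized counts in *myd88*+/+ tissue, against 352 and 280 and then 393 and 282 in *myd88*-/- tissue. The mutant level was above the controls at 1 hpci and below them at 24 hpci, each without overlap, and the gene had a change of 0.08 there, which was not called (interaction -1.77, standard error 0.35, limma adjusted p = 0.69). The receptor gene *rxrgb* rose from 84 and 93 to 371 and 301 and from 156 and 152 to 255 and 336 (interaction -0.98, standard error 0.34). The binding protein gene *crabp2b* had 29 and 224 and then 33 and 47, against 13 and 10 rising to 97 and 66 (interaction 3.73, standard error 1.11), the same direction as its paralog *crabp2a*. The controls at 1 hpci lay far apart for *crabp2b*, and its interaction ranged from 2.28 to 5.18 with single libraries left out. Over the 29 genes of the list the median interaction was 0.07, and 2 genes in each direction had an unadjusted p below 0.05, beside 3.1% of all genes above and 0.892% below 0. The median was -0.25 without replicate 2 of *myd88*+/+ at 24 hpci and -0.08 without replicate 2 of *myd88*-/- at 24 hpci.

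Clock genes also lay on both sides of 0, 4 with an unadjusted p below 0.05 above 0 and 4 below 0 out of 45 (8 of 45, beside 3.99% of all genes). The repressor gene *nfil3-5* had 220 and 417 and then 190 and 427 normalized counts in *myd88*+/+ tissue, against 1299 and 1066 falling to 243 and 244 in *myd88*-/- tissue (interaction -2.18, standard error 0.57, limma adjusted p = 0.94). The nuclear receptor gene *rorcb* had 77 and 175 and then 104 and 159, against 462 and 443 falling to 147 and 136 (interaction -1.82, standard error 0.53). The period gene *per1a* had 75 and 197 falling to 18 and 35, against 32 and 31 and then 80 and 31 (interaction 2.88, standard error 0.84), and the PAR bZIP factor gene *dbpa* had 213 and 211 falling to 43 and 65, against 57 and 83 and then 100 and 45 (interaction 1.95, standard error 0.59). For all 4 the genotypes were apart at 1 hpci without overlap and overlapped at 24 hpci. Being chosen by their interaction favours genotypes apart at 1 time point, so this describes the 4 and not the list. In UT ventricles *nfil3-5* had 136 and 55 normalized counts in *myd88*+/+ and 427 and 401 in *myd88*-/- fish, so the genotypes were apart in the same direction there, without a test.

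Among the chaperones, which refold damaged proteins, the inducible HSP70 genes and a small heat shock gene went in opposite directions. *hsp70l* had 663 and 347 and then 327 and 158 normalized counts in *myd88*+/+ tissue, against 489 and 552 falling to 62 and 72 in *myd88*-/- tissue (interaction -1.87, standard error 0.55, limma adjusted p = 0.94). *hsp70.2* and *hsp70.3*, near copies whose shared reads may be lost with the multimapping reads, had interactions of -1.49 and -1.36 with standard errors of 0.54 and 0.55. For all 3 the mutant lay below the controls at 24 hpci without overlap, and the genotypes overlapped at 1 hpci. Their choice by the interaction favours such a separation, so it describes these 3 genes only. In UT ventricles *hsp70l* had 201 and 178 normalized counts in *myd88*+/+ and 14 and 14 in *myd88*-/- fish, apart in the same direction as at 24 hpci. The crystallin gene *cryabb* had 49 and 50 falling to 8 and 8, against 6 and 5 and then 15 and 20 (interaction 3.99, standard error 0.70, limma adjusted p = 0.53), and its replicates were among the closest of the named genes. Over all 56 genes of the list the median was -0.37, and it was -0.07 without the shallow library.

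In the metabolic and signalling lists, *cpt1b*, the carnitine transferase gene that admits fatty acids to mitochondria, fell from 1502 and 995 to 218 and 212 normalized counts in *myd88*+/+ and from 1031 and 887 to 482 and 321 in *myd88*-/- tissue (interaction 1.22, standard error 0.39). Of 37 fatty acid oxidation genes it alone had an unadjusted p below 0.05, beside 3.99% of all genes tested. That list leaned the other way, with a median of -0.15 and with 15 genes above and 22 below 0. Its median ranged from -0.43 to 0.10 with single libraries left out. The forkhead factor gene *foxo1a*, which AKT holds out of the nucleus, fell from 617 and 513 to 195 and 162 in the controls and had 295 and 206 and then 305 and 183 in the mutants (changes of -1.66, called, and -0.06, not called). It was the only one of 52 PI3K and AKT genes with an unadjusted p below 0.05, beside 3.99% of all genes tested. The median interaction of that list was 0.24, with 36 genes above and 16 below 0, and it was 0.05 without the shallow library. *hif1al*, a hypoxia-inducible factor gene, fell from 1286 and 1233 to 193 and 219 and from 1347 and 1194 to 455 and 349 (interaction 0.94, standard error 0.31). It was 1 of 3 among 31 hypoxia genes with an unadjusted p below 0.05, beside 3.99% of all genes tested. The others were *ankrd37*, a hypoxia target gene (interaction 1.27, standard error 0.48), and, in the other direction, *ero1a*, an oxidase gene of the endoplasmic reticulum. *ero1a* had 467 and 439 and then 949 and 433, against 540 and 638 and then 353 and 371 (interaction -1.20, standard error 0.47). The median of the hypoxia list was -0.05, with 14 genes above and 17 below 0, and it ranged from -0.25 to 0.03 with single libraries left out. At 24 hpci *cpt1b* and *hif1al* were higher in the mutant without overlap, and *foxo1a* overlapped.

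Genes of the most abundant cellular machines had interactions below 0 as blocks, and their medians moved with single libraries. The interaction was below 0 for 81 of 82 genes matched as cytosolic ribosomal proteins (the exception, *rps6kal*, is a kinase gene that the name pattern had caught), for 74 of 74 mitochondrial ribosomal protein genes, for 84 of 86 oxidative phosphorylation subunit genes and for 49 of 54 proteasome subunit genes, and these 4 lists held 0 genes with an unadjusted limma p below 0.05. Their medians were -0.68, -0.42, -0.55 and -0.43. Without replicate 1 of *myd88*+/+ at 24 hpci the medians were 0.02, -0.08, 0.02 and 0.01. The mitochondrial ribosomal median was also -0.08 without replicate 2 of *myd88*+/+ at 1 hpci. Cytosolic ribosomal protein genes summed to 66695 normalized counts in replicate 1 of *myd88*+/+ at 24 hpci and to 24765 to 37598 in the other 7 libraries. By expression level, genes with a mean of 5 to 20 normalized counts had a median interaction of 0.51 and those above 500 a median of -0.27, and without that library the medians were 0.15 and -0.02. The collagen median was 1.2 without it.

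**Figure D5:**
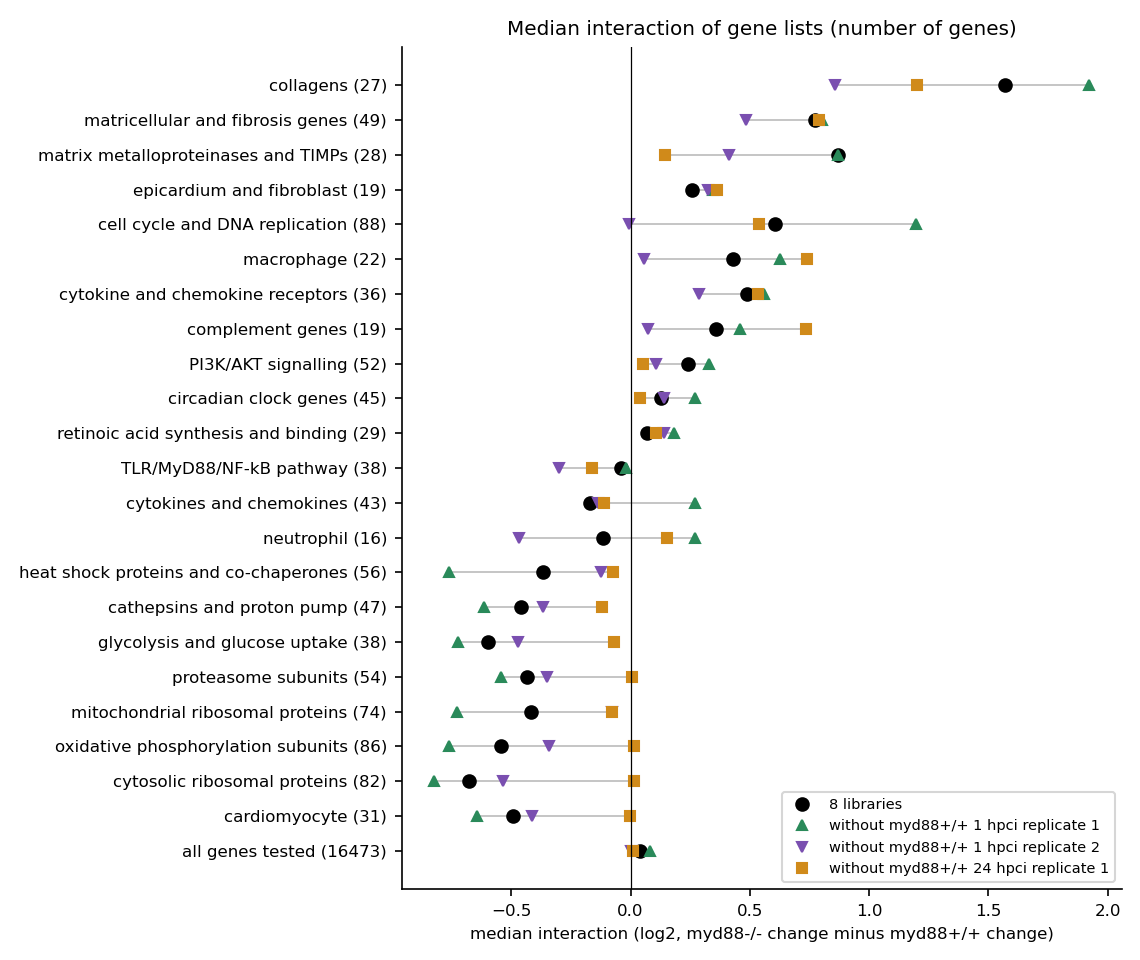
Median interaction (log2, change in *myd88*-/- minus change in *myd88*+/+) of 22 gene lists and of all genes tested, from the 8 libraries (black circles) and with each of 3 *myd88*+/+ libraries left out (coloured symbols). Collagens stay above 0 in all 4 fits, the cell cycle list lies near 0 without replicate 2 at 1 hpci, and the ribosomal, oxidative phosphorylation, proteasome and cardiomyocyte lists lie near 0 without replicate 1 at 24 hpci.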

How the data were processed

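Stranded mRNA-seq libraries were sequenced from pooled injured tissues. Per the submitters' processing notes and the study's methods, the authors ran Trimmomatic 0.39 for trimming and STAR 2.7.3a for alignment to danRer11, removed duplicate, multimapping, ribosomal and mitochondrial reads with Picard 2.21.7 and other filters, counted reads on exons with featureCounts 1.6.5 and normalized them with DESeq2 1.26.0. The deposited score values are these counts divided by the size factor of each library and rounded to whole numbers, so a count model was not used. Reads of near-identical paralogs were partly lost with the multimapping reads.

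The values were analysed as log2(value + 1), which understates changes of low genes, with limma 3.58.1 in R 4.3.3 (empirical Bayes with a trend, 4 group means, 8 libraries, 4 residual degrees of freedom). Of 22736 genes, the 16473 with a mean above 5 over the 8 libraries were tested. The study tested raw counts, which were not used here. Named genes were those called in the interaction, up to 15 per direction of the largest interactions with an unadjusted p below 0.01, a mean above 20 and changes without overlap, the members of each list with an unadjusted p below 0.05 (at most 4) or with its largest interaction, and *myd88*, *cxcl18b*, *il1b*, *tnfa*, *il11a*, *mmp9* and *mmp13a*. The genes and lists were chosen with earlier results of these data known. Correlations of the replicate deviations between the time points were 0.28 in *myd88*+/+ and 0.28 in *myd88*-/- tissue. Between groups of different genotype these correlations lay from -0.34 to -0.06. Whether replicate numbers paired the libraries within a genotype was not tested. The alternatives tried were other pseudocounts, filters, normalizations, variance models and thresholds, all 12 libraries, a replicate block, and each library left out. The script was tested on simulated data.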

Additional observations from a re-analysis of the deposited data

Results flagged for a closer look

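The interaction of *alpk2*, 6.75 on the log2 scale (limma adjusted p = 0.0057), was the only result whose change over time differed between the genotypes by a test of the difference itself. The change was 6.02 in *myd88*-/- and -0.73 in *myd88*+/+ tissue. Both mutant libraries at 1 hpci, with 6 and 2 normalized counts, stood apart from the other 6 libraries, which held 289 to 762.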

How the results depend on the processing

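With 2 libraries per group, and the shallow library in 1 of the groups, the number of genes called in the interaction was small under every alternative but 1. It was 3 with quantile normalization and 3 with all 12 libraries, and limma without a trend called 0 (734 with an unadjusted p below 0.05). With single libraries left out it ranged from 0 to 36, with 36 without replicate 1 of *myd88*+/+ at 1 hpci, 2 without replicate 1 of *myd88*-/- at 24 hpci, and limma calls of 0 without replicate 2 of *myd88*+/+ at 1 hpci (834 with an unadjusted p below 0.05) and without replicate 2 of *myd88*-/- at 24 hpci (469). Array weights gave 2194 genes for the change in *myd88*+/+ and 7129 in *myd88*-/- tissue, and leaving out single libraries gave 2643 to 5271 and 1122 to 5612. The lowest counts came without replicate 1 of *myd88*+/+ at 1 hpci and without replicate 2 of *myd88*-/- at 24 hpci. The median interaction of genes that rose ranged from -0.046 to 0.23 and of genes that fell from -0.089 to 0.42 with single libraries left out. The cause of these shifts was not tested.

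The replicate block was 1 effect common to both genotypes, so a pairing within each genotype was not tested. It gave 1 gene in the interaction, 4175 for *myd88*+/+ and 4362 for *myd88*-/-, with an adjusted p of 0.019 for *alpk2* in limma. Of 1534 values for 81 named genes under 19 alternatives, 1514 kept direction and side of the thresholds. The call of *alpk2* was lost under 3, limma without a trend (adjusted p = 0.085) and the 2 left-out libraries given above. Under single alternatives, 8 values of *col18a1a*, *oit3*, si:ch211-14a17.10, *myhz2* and *crabp2b* passed. The direction turned for 9 values in 5 genes when a library was left out, over ranges of -0.48 to 0.29 for *il1b*, -0.95 to 0.089 for *il11a*, -0.67 to 0.40 for *mmp9*, and -2.88 to 0.44 and -0.51 to 0.27 for the *mmp13a* genes.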
